A study of Rattus norvegicus with 5 samples.

Results

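Transcripts of the calmodulin kinase family were followed in laser-captured neurons of the rat striatum, in 2 libraries of striatomesencephalic neurons and 3 libraries of striatopallidal neurons. The family was given as a list of 9 gene symbols: Camkv, Camk2a, Camk2b, Camk2d, Camk2g, Camk4, Camk1d, Camkk1 and Camkk2. Of these, 8 were found by symbol in the authors' deposited comparison and carried forward by Ensembl identifier, out of 32285 genes counted. Camkk1, an upstream kinase kinase, had no match and was not analysed here. All 8 matched members passed the filter on low counts, beside 13811 genes tested in all. The members were chosen by name and without a threshold, but with fold changes of the comparison between the neuron types already known, and no record says which of these led to the list. The differences between the neuron types are therefore given as a description.

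Calmodulin kinases are switched on when calcium-loaded calmodulin binds them and releases their inhibitory segment. CaMKII, built from subunits encoded by Camk2a, Camk2b, Camk2d and Camk2g, assembles into a multi-subunit ring and is abundant at excitatory synapses, where it acts in synaptic plasticity. The kinase kinases encoded by Camkk1 and Camkk2 phosphorylate CaMKI, CaMKIV and the energy sensor AMPK, and CaMKIV acts mainly in the nucleus on transcription factors such as CREB. Camkv encodes a calmodulin kinase-like protein of vesicles that lacks kinase activity and has been linked to the upkeep of dendritic spines.

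Striatomesencephalic neurons send their axons to the midbrain and form the direct pathway, and striatopallidal neurons send theirs to the pallidum and form the indirect pathway. Each neuron had been marked by a fluorescent tracer taken up in its target region and was cut out of the striatum by laser. No strain, age, sex or treatment is stated in the labels used here, and neither is the number of animals or cells behind a library. P-values therefore measure only the spread between these libraries, which may be technical. Values are CPM, counts divided by the total of their library and brought to 1 scale, and are not corrected for transcript length, so members are compared between libraries and not with one another.

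Library totals ran from 20845178 to 24805062 counts, so that 3 counts, taken as the detection limit, corresponded to 0.121 to 0.144 CPM, counting error only. Striatopallidal replicate 2 stood apart from the other libraries, with Spearman correlations of 0.785 to 0.820 against 0.845 to 0.907 among the rest. TMM, edgeR's factor for library make-up, was 0.774 for that library, against 1.02 to 1.14 for the others. This factor enters the log2 fold changes below but not the CPM values, so an order of libraries in CPM can change with it. The labels were checked against markers: the summed CPM of 8 direct pathway markers was 4727 and 5148 in striatomesencephalic against 1689 to 2553 in striatopallidal libraries. For 5 matched indirect pathway markers of 7 listed, the sums were 1837 and 2013 against 6197 to 6881 CPM. Oligodendrocyte RNA was present in every library (9 markers summing to 5307 to 7468 CPM, overlapping between the groups). Sums also overlapped for astrocyte markers (10 genes, 1433 to 2043 CPM) and for the 5 matched interneuron markers of 11 (60.8 to 128 CPM). Among the astrocyte markers Gfap, their filament protein gene, was lower without overlap in striatomesencephalic libraries, at 11.5 and 3.85 CPM against 243, 175 and 87.7 CPM. Aqp4, the water channel gene, was also lower without overlap, at 53.0 and 30.5 against 89.4, 63.5 and 62.3 CPM. Slc1a2 went the other way, higher without overlap in CPM, at 37.6 and 63.9 against 25.4, 36.4 and 26.2 CPM, but its groups overlapped with TMM scaling. Aldh1l1 was higher without overlap under both scalings, at 1.87 and 7.83 against 1.55, 0.484 and 0.312 CPM. Of the 10 astrocyte markers, 2 were thus higher and 2 lower without overlap in CPM, against 11.2% and 9.91% of all genes tested. Of the 5 matched interneuron markers, 2 were higher (Slc5a7 and Calb2) and 2 lower (Chat and Sst) without overlap, so their overlapping sum hides opposite differences. The part of these markers in the values of the kinase genes was not tested. In captured samples of this kind, fewer cells of a type and less RNA per cell cannot be told apart.

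Camkv was higher in striatomesencephalic neurons in every library, while the groups overlapped for 6 of the 7 other members and Camk2g was lower without overlap. Camkv stood at 1821 and 1847 CPM in striatomesencephalic replicates 1 and 2, and at 945.5, 787 and 809 CPM in striatopallidal replicates 1, 2 and 3. The groups did not overlap, and the lowest striatomesencephalic library was far above the highest striatopallidal one. The means were 1834 ± 19.0 CPM (SD, n = 2) and 847 ± 85.7 CPM (SD, n = 3), giving a log2 difference of 1.03 ± 0.27 (SE). Here and below a log2 difference or fold change is striatomesencephalic minus striatopallidal, from edgeR's quasi-likelihood fit over all 5 libraries. The value ran from 0.94 to 1.15 when each library was left out in turn.

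The libraries of a group lay close together for Camkv. The higher of the striatomesencephalic libraries was 1.01 times the lower, and the highest striatopallidal library 1.20 times the lowest. Over the 8668 genes with a symbol and a mean of at least 10 CPM, the medians of these ratios were 1.63 and 2.52. In the authors' deposited table, which is signed the other way round, Camkv had a log2 fold change of -1.13 and ranked 4 of 12054 genes by p, with an adjusted p of 0.927. In the edgeR fit Camkv ranked 81 of 13811 genes by p.

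Camkv and Camk2b, the members with the most counts, are shown by the 250 bases before their annotated starts, because the libraries of the neuron types lay apart for Camkv and overlapped for Camk2b. The sequences are from RefSeq on build GRCr8, which held such a window for 7 of the 9 listed genes, matched by symbol. Capitals mark GC boxes (GGGCGG, either strand, overlapping matches counted). The Camkv window lies at chr8:117505189-117505438 on the plus strand and the Camk2b window at chr14:85147945-85148194 on the minus strand, both written in the direction of the gene.
Camkv: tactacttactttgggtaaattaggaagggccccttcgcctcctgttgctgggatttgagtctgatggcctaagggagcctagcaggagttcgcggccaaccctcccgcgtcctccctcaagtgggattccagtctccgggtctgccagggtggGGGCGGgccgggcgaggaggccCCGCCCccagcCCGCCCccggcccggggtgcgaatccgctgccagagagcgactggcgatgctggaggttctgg
Camk2b: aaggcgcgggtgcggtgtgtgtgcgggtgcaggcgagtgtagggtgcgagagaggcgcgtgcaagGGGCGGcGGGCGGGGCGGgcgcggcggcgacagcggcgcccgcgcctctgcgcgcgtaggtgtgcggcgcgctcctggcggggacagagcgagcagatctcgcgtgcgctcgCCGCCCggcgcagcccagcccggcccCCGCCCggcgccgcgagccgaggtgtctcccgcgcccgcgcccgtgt
The Camkv window held 3 GC boxes and the Camk2b window 5, of which a pair at the first cluster share a base. A GC box occurred in 30.5% of the 33469 RefSeq windows of the same length. Neither window held the CRE half-site TGACG (18.2% of windows), the E-box CAGCTG (12% of windows), CCAAT (34%) or TATAAA (12.9%), each searched on both strands. The GC content was 66.4% for Camkv and 80.4% for Camk2b, against a median of 51.2% over all windows. These matches describe the letters of the windows, and no binding was measured.

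**Figure D1:**
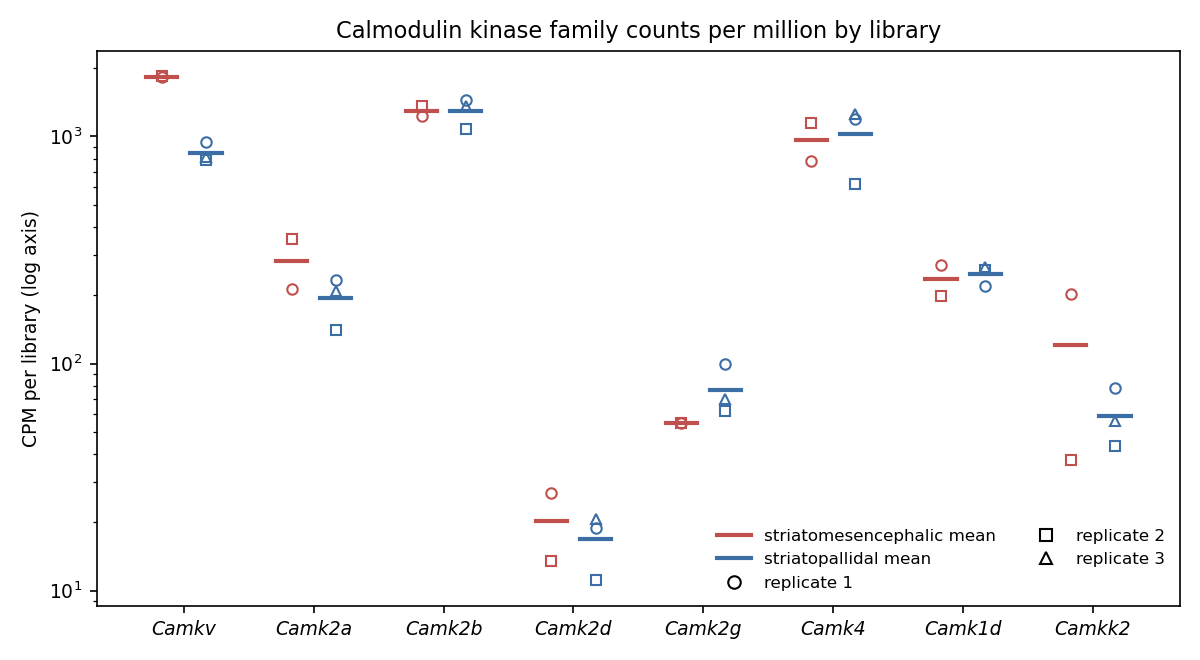
Each symbol is the CPM of 1 library on a log axis for the 8 matched members, with red for striatomesencephalic and blue for striatopallidal libraries, and bars at the group means. The Camkv symbols form separate clusters around 1834 and 847 CPM, while those of Camk2b overlap around a mean of 1297 CPM in both groups.

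Among the CaMKII subunit genes, Camk2b, which encodes the beta subunit that binds actin, was level between the neuron types. It stood at 1229 and 1365 CPM in striatomesencephalic libraries and at 1450.3, 1081 and 1359 CPM in striatopallidal libraries, so the groups overlapped. Its log2 fold change was -0.07 ± 0.26 (SE), and its sign depended on the scaling of the libraries.

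Camk2a, which encodes the alpha subunit and whose messenger RNA is carried into dendrites, stood at 213 and 352 CPM in striatomesencephalic libraries and at 232, 140.3 and 209 CPM in striatopallidal libraries. Striatomesencephalic replicate 2 was the highest of the 5, and replicate 1 lay inside the striatopallidal range. The log2 fold change was 0.50 ± 0.39 (SE), and it was 0.08 without striatomesencephalic replicate 2.

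Camk2g, which encodes the gamma subunit found in many tissues, stood at 54.8 and 54.6 CPM in striatomesencephalic libraries and at 99.4, 61.6 and 69.6 CPM in striatopallidal libraries. Both striatomesencephalic libraries lay below all striatopallidal ones, by a margin smaller than the range of the latter. The log2 fold change was -0.55 ± 0.48 (SE), with -0.66 to -0.46 when each library was left out in turn.

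Camk2d, which encodes the delta subunit best known from heart muscle, had the fewest counts of the family, 275 to 561 per library. It stood at 26.9 and 13.4 CPM in striatomesencephalic libraries and at 18.8, 11.1 and 20.6 CPM in striatopallidal libraries, with overlapping groups. The log2 fold change was 0.22 ± 0.71 (SE), and -0.34 without striatomesencephalic replicate 1.

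The make-up of the CaMKII counts was examined within each library, where it does not depend on scaling between libraries. Camk2b supplied most of the counts of the 4 Camk2 genes, from 76.5% in striatomesencephalic replicate 2 to 83.5% in striatopallidal replicate 2. These counts are not corrected for transcript length, so the shares are compared between libraries and do not rank the subunits. Camk2a supplied 14.0% (95% Wilson interval 13.6 to 14.4) and 19.7% (19.4 to 20.1) in striatomesencephalic replicates 1 and 2. In striatopallidal replicates 1, 2 and 3 it supplied 12.9% (12.6 to 13.2), 10.8% (10.5 to 11.2) and 12.6% (12.3 to 13.0).

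The Camk2a share was thus higher in both striatomesencephalic libraries, with means of 16.9% ± 4.07 (SD, n = 2) and 12.1% ± 1.11 (SD, n = 3), but the difference of 4.74 percentage points was close to the spread of the striatomesencephalic pair. Without striatomesencephalic replicate 2 the difference was 1.86 points, and without replicate 1 it was 7.62 points. Camk2g had the opposite order, at 3.33% ± 0.381 (SD, n = 2) against 4.82% ± 0.663 (SD, n = 3), without overlap. The shares of Camk2b and Camk2d overlapped between the groups. An exact permutation test (two-sided) on 2 against 3 values cannot give a p below 0.1, so no p is drawn from these shares, and the intervals cover counting error only. The summed CPM of the 4 genes overlapped, at 1524 and 1786 against 1801, 1294 and 1659 CPM.

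**Figure D2:**
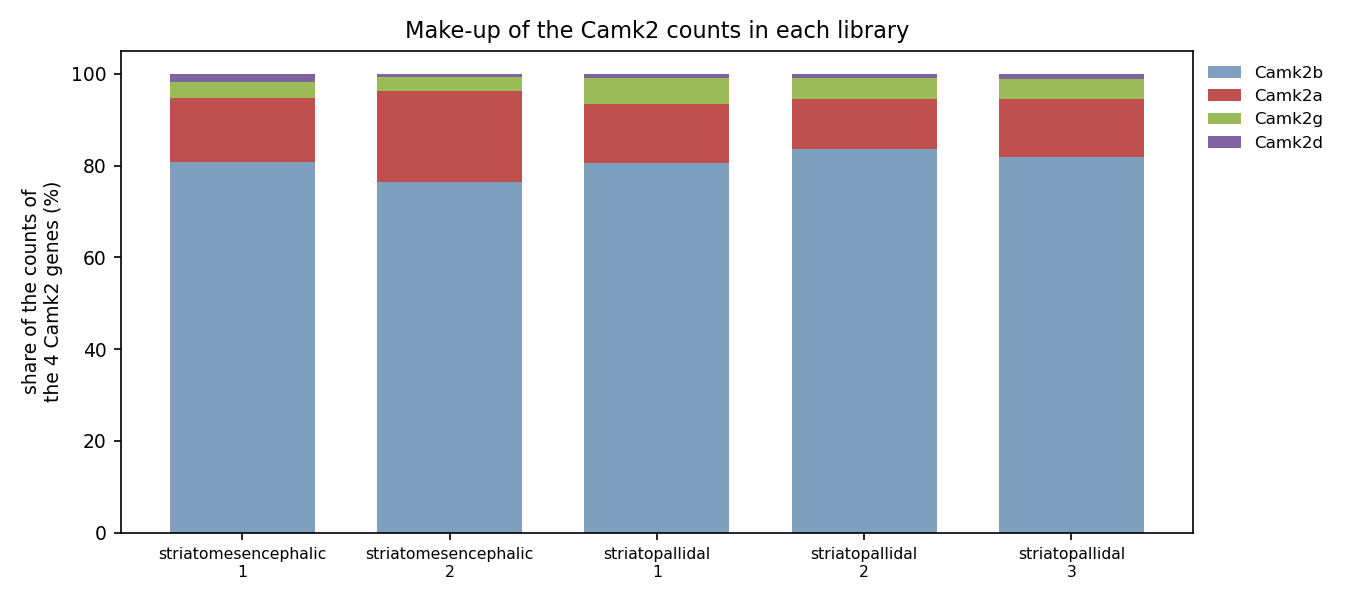
Stacked bars give the share of each of the 4 Camk2 genes in their summed counts, in percent, for each of the 5 libraries. Camk2b fills 76.5% to 83.5% of every bar, and the Camk2a segment is tallest in striatomesencephalic replicate 2, at 19.7%.

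Camk4, which encodes the nuclear kinase CaMKIV, varied more within the groups than between them. It stood at 784 and 1149 CPM in striatomesencephalic libraries and at 1199, 617 and 1259.9 CPM in striatopallidal libraries. Striatopallidal replicate 2 was the lowest of all 5 in CPM, a place that depends on its scaling. The log2 fold change was -0.11 ± 0.33 (SE).

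Camk1d, which encodes a CaMKI isoform that acts in the cytoplasm, stood at 272 and 198 CPM in striatomesencephalic libraries and at 220.1, 259 and 266 CPM in striatopallidal libraries. In CPM the striatomesencephalic pair held both the highest and the lowest value of the 5, an order that depends on the scaling of striatopallidal replicate 2. The log2 fold change was -0.19 ± 0.40 (SE).

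Camkk2, the kinase kinase of CaMKI, CaMKIV and AMPK, had a fold change nearly as large as Camkv but no separation of the groups. It stood at 203 CPM in striatomesencephalic replicate 1 and 37.7 CPM in replicate 2, against 77.8, 43.5 and 55.8 CPM in striatopallidal libraries. The striatomesencephalic libraries thus held the highest and the lowest value, and the first was 5.37 times the second. The log2 fold change was 0.97 ± 0.70 (SE) with all 5 libraries and -0.67 without striatomesencephalic replicate 1.

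With edgeR's quasi-likelihood fit 0 of 8 members had an adjusted p under 0.05, and the share of genes called was 0%. The smallest adjusted p among the members was 0.779, that of Camkv. At an unadjusted p below 0.05, 1 of 8 members passed (Camkv, higher) and 0 were lower, against 6.07% of all genes, or 2.93% higher and 3.14% lower. With the replicate block that count was 0 of 8, against 465 of 13811 genes. DESeq2 called none of the 8 either, against 1.75% of the genes to which it gave an adjusted p. Of the 8 members, 1 (Camkv) was higher without overlap in CPM, against 11.2% of all genes, and 1 (Camk2g) was lower without overlap, against 9.91%. Values scaled by TMM, edgeR's factor for library make-up, gave the same 2 members. The signs split evenly, with 4 members above 0 and 4 below, against 47.4% of all genes above 0, and the median log2 fold change was 0.08, against -0.06 over all genes tested. Since the list was drawn up with this comparison in view, nothing is read from these counts.

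**Figure D3:**
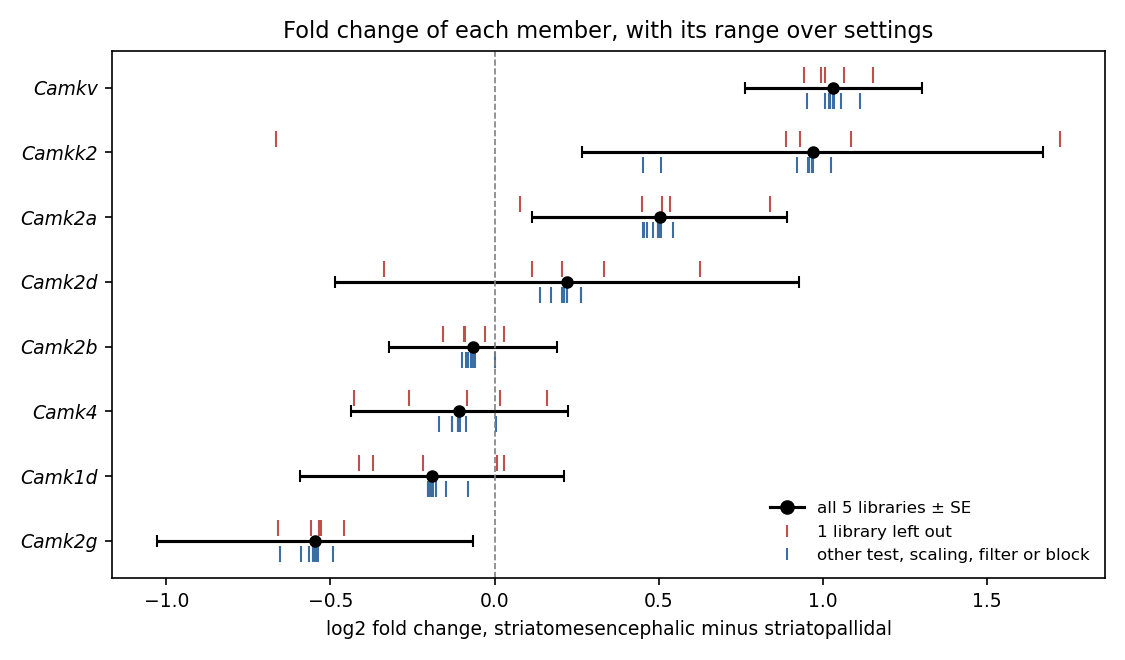
Black points are log2 fold changes of the 8 members with bars of 1 SE, red ticks the values with 1 library left out, and blue ticks those under another test, scaling, filter or the replicate block. All ticks of Camkv lie between 0.94 and 1.15, whereas those of Camkk2 reach from -0.67 to 1.72.

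Camkv was also set against each other member within the same library, which removes the scaling between libraries. Per 100 Camk2b counts there were 148 and 135 Camkv counts in striatomesencephalic libraries, and 65.2, 72.8 and 59.6 in striatopallidal libraries. The ratio did not overlap between the groups, and the mean of the former was 2.15 times that of the latter. Per 100 Camk4 counts there were 232 and 161 against 78.8, 128 and 64.2 Camkv counts.

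The same separation held for 4 of the 7 other members, namely Camk2b, Camk2g, Camk4 and Camk1d. It did not hold against Camk2a, where the ratio was 854 and 524 against 407, 561 and 387 Camkv counts per 100, a difference of means of 237.6. That difference was 72.5 without striatomesencephalic replicate 1 and 402.7 without replicate 2. Against Camk2d and Camkk2, which varied most within the striatomesencephalic pair, the groups overlapped as well. All 7 ratios share Camkv as numerator, and its CPM already lay apart between the groups. The ratios are therefore not separate results, and a separation against a steady member was built in.

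Genes of other identities were read beside Camkv and Camk2a, which are both known from cortical excitatory neurons. Of 10 glutamatergic markers only Rorb and Cux2 could be matched, and the vesicular glutamate transporter genes were not analysed here. Rorb stood at 129 and 55.4 CPM in striatomesencephalic libraries and at 22.4, 13.7 and 20.3 CPM in striatopallidal libraries, without overlap. Cux2 stood at 1.87 and 27.5 against 5.66, 0.443 and 1.47 CPM, with overlap. Their part in the Camkv values was not tested. Among the direct pathway markers, Drd1, their dopamine receptor, stood 1.12 ± 0.31 (SE) higher on the log2 scale, and Tac1, the substance P precursor, 1.13 ± 0.31 (SE), close in size to that of Camkv, while Pdyn, the dynorphin precursor, was at 1.86 ± 0.32 (SE). The indirect pathway markers Drd2, Penk and Adora2a were at -2.05, -2.69 and -1.74.

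The genes whose pattern over the 5 libraries was most like that of Camkv were Pdgfa, Epha7, Tmem180, Itih3 and Acer2. Their Pearson r of log2(CPM + 1) with Camkv ran from 0.9965 to 0.9991, the 5 highest of 8668 genes with a symbol and at least 10 CPM on average. Pdgfa, a platelet-derived growth factor, stood at 32.4 and 33.2 CPM in striatomesencephalic libraries and at 8.35, 5.60 and 6.56 CPM in striatopallidal libraries. Epha7, an ephrin receptor, stood at 192 and 185 CPM against 127, 115 and 114 CPM. With 5 points and this many genes, values near 1 describe the order and spacing of the libraries only.

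The genes around the kinases were described by 6 lists with 68 tested genes, of which 0 had an adjusted p under 0.05 with edgeR's quasi-likelihood fit, as did 0% of all genes. At an unadjusted p below 0.05, 7 of 68 passed, against 6.07% of all genes. That count was 4, 9 and 3 without striatopallidal replicates 1, 2 and 3. Of all genes, 784 of 13110, 1121 of 13566 and 641 of 13428 passed there. With the replicate block the count was 1 of 68, against 465 of 13811 genes. The synapsin gene Syn1 was the 1 gene of the 68 called by DESeq2 and likewise by edgeR's exact test. Over all genes DESeq2 called 226 of 12919 (1.75%) and the exact test 45 of 13811. The list medians ran from -0.32 to 0.25 on the log2 scale, and none held genes of a single direction.

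Of the calmodulin genes and calmodulin-binding proteins, 7 of 9 were matched, with 3 above 0, 4 below and a median of -0.23. Nrgn, neurogranin, which holds calmodulin in dendrites, stood at 77.8 and 129 CPM in striatomesencephalic libraries and at 453, 152 and 349 CPM in striatopallidal libraries. The groups did not overlap, and the log2 fold change was -1.61 ± 0.49 (SE), opposite in sign to Camkv. Calm2, a calmodulin gene, had -0.33 ± 0.22 (SE) and Camta2, a calmodulin-binding transcription activator, 0.74 ± 0.69 (SE).

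Of 7 CaMKII inhibitors and phosphatases, 6 were tested, with 2 above 0, 4 below and a median of -0.17. Ppm1e, a phosphatase that removes the activating phosphate of CaM kinases, had a log2 value of 3.18 ± 1.22 (SE), with striatomesencephalic replicate 2 at 157 CPM far above 9.50 CPM in replicate 1 and 6.21, 13.8 and 3.97 CPM in striatopallidal libraries. Ppm1f, a related phosphatase, stood at 45.5 and 42.1 against 23.9, 10.5 and 25.0 CPM, without overlap, giving a log2 difference of 1.13 ± 0.62 (SE). Ppp1ca, a catalytic subunit of protein phosphatase 1, had -0.35 ± 0.33 (SE).

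Of 15 relatives of the calmodulin kinases, 10 were tested, with 7 above 0, 3 below and a median of 0.25. The doublecortin-like kinases Dclk2 and Dclk3 had opposite signs. Dclk2 stood at 235 and 227 CPM in striatomesencephalic libraries and at 468, 475 and 366 CPM in striatopallidal libraries, giving a log2 difference of -1.03 ± 0.39 (SE). Dclk3 had the reverse order, at 165 and 118 against 71.8, 60.1 and 62.6 CPM, giving a log2 difference of 1.04 ± 0.44 (SE). The groups overlapped for neither gene. Camk1g, another CaMKI isoform, stood at 26.6 and 18.8 against 8.68, 0.161 and 14.8 CPM, giving a log2 difference of 1.60 ± 1.35 (SE).

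All 9 genes of calcineurin, the calmodulin-dependent phosphatase, and its regulators were tested, with 4 above 0, 5 below and a median of -0.04. Ppp3cb, a catalytic subunit, stood at 328 and 343 CPM in striatomesencephalic libraries and at 1012, 308 and 1619 CPM in striatopallidal libraries. In CPM striatopallidal replicate 2 lay below both striatomesencephalic libraries, whereas with TMM scaling the groups did not overlap. The log2 fold change of Ppp3cb was -1.53 ± 0.56 (SE). Ppp3ca, the other main catalytic subunit of neurons, had -0.46 ± 0.29 (SE), and Akap5, a scaffold that anchors calcineurin at synapses, 1.06 ± 0.56 (SE).

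Of 15 synaptic partners and substrates of CaMKII, 10 were above 0 and 5 below, with a median of 0.24. Syn1, a vesicle protein that CaMKII phosphorylates, stood at 19.5 and 40.9 CPM in striatomesencephalic libraries and at 202, 510.2 and 264 CPM in striatopallidal libraries, giving a log2 difference of -3.62 ± 0.77 (SE). Its groups were far apart. Gria1, an AMPA receptor subunit that CaMKII phosphorylates, stood at 436 and 411 against 252, 240.2 and 302 CPM, giving a log2 difference of 0.59 ± 0.34 (SE).

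All 21 targets of the kinase kinases and CaMKIV were tested, with 8 above 0, 13 below and a median of -0.32. Mef2a, an activity-regulated transcription factor, stood at 376 and 270.1 CPM in striatomesencephalic libraries and at 202, 116 and 179 CPM in striatopallidal libraries, giving a log2 difference of 0.92 ± 0.36 (SE). Crtc2, a CREB coactivator, had 1.44 ± 0.72 (SE), and Atf1, a relative of CREB, -1.68 ± 0.86 (SE). The groups did not overlap for these 3 genes, which were named for having the smallest p of the list. Of the 21 genes, 2 were higher and 3 lower without overlap, against 11.2% and 9.91% of all genes.

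**Figure D4:**
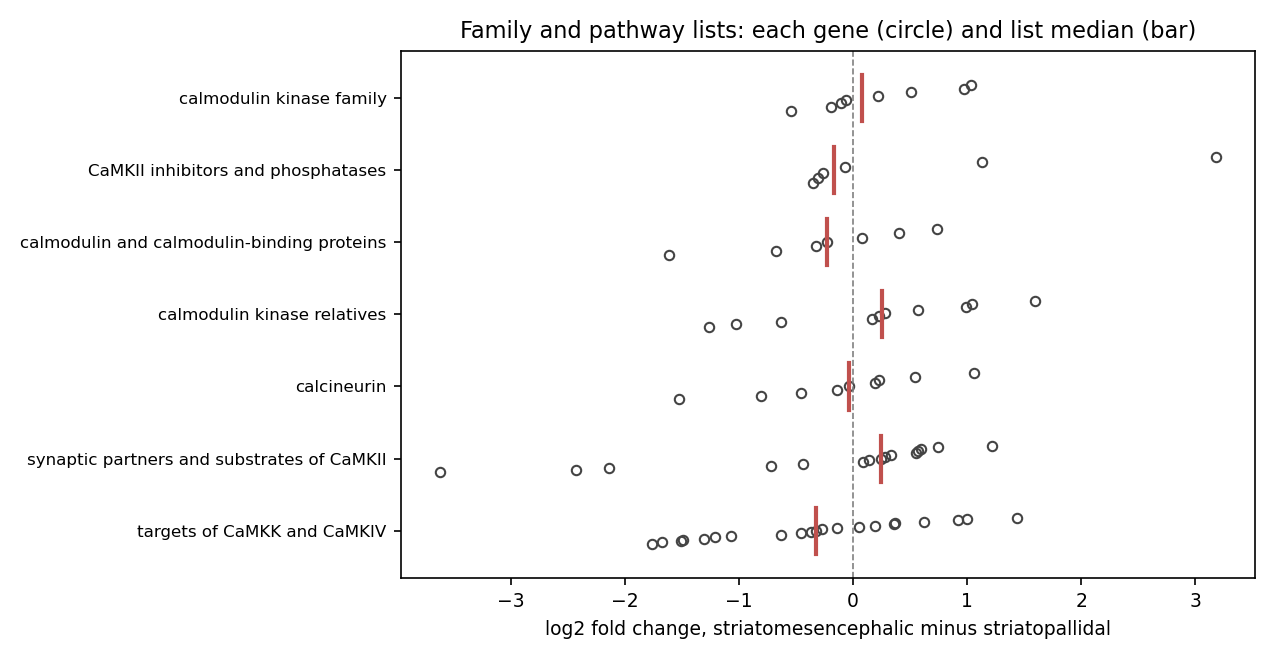
Circles are the log2 fold changes of single genes of the family and of the 6 pathway lists, and red bars the list medians. Every list spans 0, and the medians lie between -0.32 and 0.25.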

How the data were processed

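TopHat2, HTSeq, edgeR and limma are named in the submitters' processing notes, with build Rnor_6.0; their roles and versions are not stated in the sources used here. For each library the authors deposited raw read counts per Ensembl gene, the only values fitted here. Symbols, and the log2 fold changes and p-values quoted as theirs, came from the authors' deposited comparison (12054 genes). The fit used edgeR 4.0.16 under R 4.3.3: filterByExpr by group, TMM, glmQLFit and glmQLFTest, with Benjamini-Hochberg adjustment over 13811 genes at 0.05. SE was the fold change over the root of F. Alternatives were DESeq2 1.42.0, edgeR's exact test, voom of limma 3.58.1, other scalings and filters, a replicate block and leaving out each library. No library repeated another (chi-square per degree of freedom 164 to 585). The 9 members and all lists were chosen with earlier results of these data known. Beside the members, the text names the 3 genes of each list with the smallest p, pathway and glutamatergic markers, and the 5 genes most correlated with Camkv. It also names the astrocyte and interneuron markers without overlap between the groups. A gene that this rule takes is not reported here.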

Additional observations from a re-analysis of the deposited data

How the results depend on the processing

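Camkv, Camk2a and Camk2g kept their sign in all 14 alternatives, and no member passed the threshold in any of them. The other 5 members each changed sign under at least 1 alternative, and the cause was not tested. Camk2b was 0.00028 with library totals only and 0.030 without striatomesencephalic replicate 1. Without that library Camk2d was -0.34, Camk4 0.16 and Camkk2 -0.67. Camk4 was also 0.016 without striatopallidal replicate 3. Camk1d was 0.0080 without striatomesencephalic replicate 2 and 0.028 without striatopallidal replicate 2. Leaving out 1 library at a time gave -0.16 to 0.030 for Camk2b, -0.34 to 0.63 for Camk2d, -0.43 to 0.16 for Camk4, -0.41 to 0.028 for Camk1d and -0.67 to 1.72 for Camkk2. With the replicate block Camk4 was 0.0046. Over all genes the count past the threshold was 0 in edgeR's quasi-likelihood test (839 at an unadjusted p below 0.05), 226 with DESeq2 and 45 with edgeR's exact test. Of the 68 pathway genes DESeq2 and the exact test each called 1, and the quasi-likelihood test called 0. Whether replicate numbers pair the libraries could not be decided. Deviations of same-numbered libraries from their group means correlated at -0.03 and -0.04 across genes. With 2 striatomesencephalic libraries these deviations mirror each other, so such values cannot show or exclude a pairing. With the replicate block 0 genes were called, 0 of 8 members and 1 of 68 pathway genes had an unadjusted p below 0.05, the Camk2a share differed by 4.99 percentage points and Camkv per 100 Camk2a counts by 205.1. Every member had at least 275 counts in each library.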
